A study of Mus musculus with 8 samples.

Results

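The genes described here encode factors that act on RNA polymerase II (Pol II) during transcript elongation, and several of them are known partners of the chromatin remodeler Chd1. They are Paf1, Ctr9, Leo1, Cdc73 and Rtf1 of the Paf1 complex, Ssrp1 of FACT, Cdk9, Ccnt1 and Ccnt2 of P-TEFb, and Ell. They were chosen by name, with earlier results of these data known. All 10 were found in the GENCODE M1 annotation of the mouse genome build mm9. They are 10 of its 22367 protein-coding genes on the autosomes and sex chromosomes. DNA double-strand breaks (DSBs) were mapped by DSB-seq in mouse embryonic stem (ES) cells of 2 genotypes, with 2 replicates each. Chd1 KO cells (Chd1Δ/Δ) were an established line without a functional Chd1 allele. Control cells (Chd1fl/Δ) kept 1 floxed allele, so that 1 deleted allele was shared by both genotypes. DSB-seq uses terminal transferase to put biotin on DNA ends in fixed nuclei, and the marked fragments are captured and sequenced. The replicates of a genotype were combined before peaks were called, so 1 peak list per genotype was compared, with no error between replicates and no test.

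Pol II pauses soon after it starts a transcript, held there by the factors DSIF and NELF. The kinase P-TEFb, made of Cdk9 and a cyclin T, phosphorylates these factors and the tail of Pol II and releases it into the gene. The Paf1 complex then travels with Pol II and promotes histone modification, while the histone chaperone FACT takes nucleosomes apart ahead of Pol II and rebuilds them behind it.

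The stretches of DNA on which the account turns are shown first, each on the strand of its gene and from 5′ to 3′, with capitals for runs of only G and C. For Cdc73 and Cdk9, the genes with a Chd1 KO peak, they are the part of the peak upstream of the outermost transcription start site (TSS), with runs of at least 12 bp in capitals, and the longest run within 1 kb of that TSS, of which 30 of 35 bases are printed for Cdc73. For Ell, Leo1, Rtf1 and Ccnt1, which had none, it is the longest run in the same window, and Ccnt1 has the shortest of the 10 genes.
Cdc73, peak upstream of the TSS (chr1:145550024-145550108, minus strand): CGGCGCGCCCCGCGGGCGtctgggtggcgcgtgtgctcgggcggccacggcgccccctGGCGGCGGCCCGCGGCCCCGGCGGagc
Cdk9, peak upstream of the TSS (chr2:32568597-32568757, minus strand): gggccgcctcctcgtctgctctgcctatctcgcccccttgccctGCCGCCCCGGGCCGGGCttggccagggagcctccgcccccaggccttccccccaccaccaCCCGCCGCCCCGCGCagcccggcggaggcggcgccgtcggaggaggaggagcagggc
Cdc73, longest run (chr1:145549779-145549808, minus strand): CGGCGGGGCCCGGGGCCCGCGGCGGCGGCG
Cdk9, longest run (chr2:32568194-32568223, minus strand): ctGGGGGCGGCGGCGGCGGCGGCGGCGGag
Ell, longest run (chr8:73063518-73063546, plus strand): CGGCGGGCGGCGCGGCGGGGCGGGGCGGG
Leo1, longest run (chr9:75289449-75289478, plus strand): cggaCGGGCGGGCGGGCGGGCGGGCGagct
Rtf1, longest run (chr2:119500721-119500746, plus strand): aggtGGGGCGGGGCGGGGCGCCaggc
Ccnt1, longest run (chr15:98402196-98402212, minus strand): gtttGCGGGCCGGaaag
All coordinates are those of mm9.

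Cdc73 and Cdk9 carried a DSB peak at a TSS in Chd1 KO cells, and none of the 10 genes did so in control cells. A gene was counted when the summit of a peak, its position of highest signal, lay within 1 kb of any of its annotated TSSs. In Chd1 KO cells this held for 2 of the 10 genes, beside 15.9% of all protein-coding genes (3560 of 22367). The count fell to 1, Cdc73, at a fold enrichment of at least 4, beside 12.7% of all protein-coding genes. At the significance of the weakest control peak it was also 1, beside 14.2%. The Wilson 95% interval of the 2 of 10 ran from 5.67% to 51.0%, covers counting error only, and includes the share of all genes. With only 10 genes, the count and the share of all genes cannot be told apart. The 10 genes also had a median of 5.5 annotated TSSs, beside 2 over all protein-coding genes, so a summit could be counted at more places. In control cells such a summit was found for 0 of the 10 genes and for 0% of all protein-coding genes. None of the 54 control peaks had its summit within 1 kb of a TSS. The Chd1 KO list had 5671 peaks, of which 3673 had a summit within 1 kb of a TSS.

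No break peak lay further inside these genes. The gene body was taken as the annotated gene more than 1 kb from each of its TSSs. A Chd1 KO summit was found there in 0 of the 10 genes, beside 4.14% of all protein-coding genes, and a control summit in 0 of the 10, beside 0.0313%. The lists differ in their reach. Their combined libraries were of similar depth, with a control to Chd1 KO ratio of 0.927 from the lowest background of each list, 2.95 and 3.18 reads, but the weakest listed peak had a −log10 p-value of 7.13 in control and 4.88 in Chd1 KO. Signal below these limits was not analysed here.

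**Figure D1:**
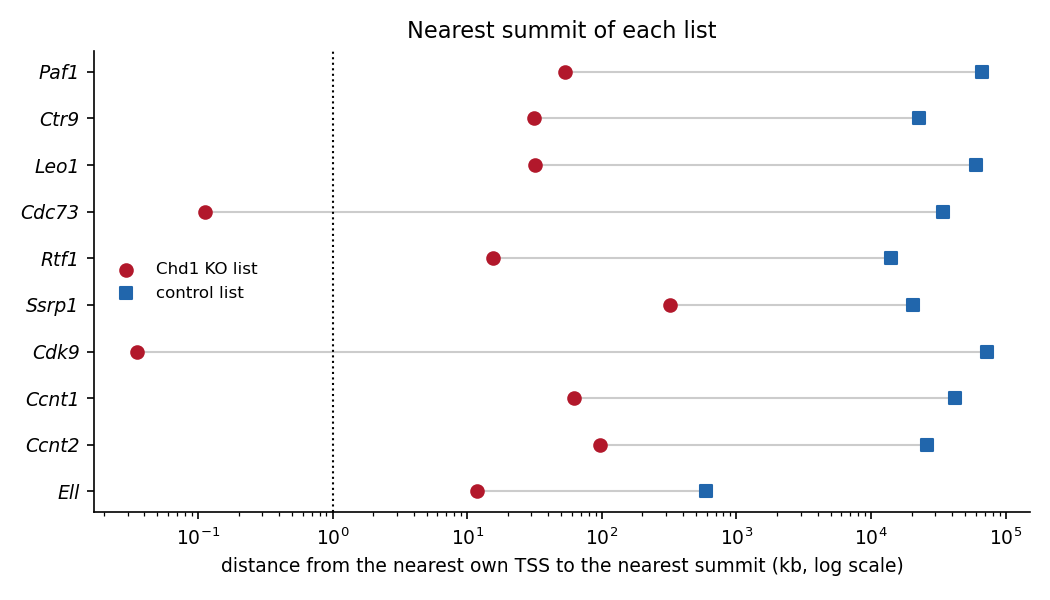
For each of the 10 genes, the distance in kb, on a log scale, from the nearest of its own TSSs to the nearest Chd1 KO summit (circles) and to the nearest control summit (squares). The dotted line marks 1 kb, and Cdc73 and Cdk9 alone have a Chd1 KO summit to its left, while the closest control summit is 592 kb from Ell.

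The Paf1 complex had 1 of its 5 listed genes with a Chd1 KO peak (Wilson interval 3.62% to 62.4%), a count near the 15.9% of all protein-coding genes. Cdc73, which encodes the subunit parafibromin, a tumor suppressor, is annotated on chromosome 1 from 145445927 to 145550023 on the minus strand. Its peak runs from 145549719 to 145550108, is 390 bp wide and spans the outermost TSS, from 85 bp upstream to 304 bp downstream. The summit at 145549911 lies 112 bp downstream of that TSS, in the 5′ untranslated region of the protein-coding transcript. Of the peaks near a TSS, this was one of the strongest. The fold enrichment, which is the ratio of reads at the summit to the local background in the same library, each plus 1, was 6.80, higher than in 98.8% of the 3673 Chd1 KO peaks near a TSS. It came from 30 extended reads over a background of 3.56, with a −log10 q-value of 13.5. No control peak overlapped it. At the depth of the control library the same density would amount to 27.8 reads, above the 17 reads needed there to reach the significance of the weakest listed control peak.

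The sequence under the Cdc73 peak is almost without A and T in places. Its GC content was 79.2%, with 66 CpG dinucleotides and 6 runs of G and C of at least 12 bp. The longest run, of 35 bp, begins 215 bp and ends 249 bp downstream of the TSS, inside the 5′ untranslated region, and is also the longest within 1 kb of the TSS. Among the 10 genes Cdc73 had the longest run and, at 0.925, the highest ratio of observed to expected CpG dinucleotides. A run of 24 bp is seen near the 3′ end of the first sequence above, just upstream of the TSS. By GC content alone the Cdc73 promoter was less extreme. Within 1 kb of the outermost TSS it was 55.9%, at percentile 74.9 of all protein-coding genes, whereas the run of 35 bp was at percentile 98.9.

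Paf1, Ctr9, Leo1 and Rtf1, the other Paf1 complex genes, had no summit of either list within 1 kb of a TSS or in the gene body. Paf1, the subunit that names the complex, is on chromosome 7 from 29177970 to 29184407 (plus strand). Its promoter GC content was 57.7%, above that of Cdc73, but its longest run was 15 bp and lay from 552 to 538 bp upstream of the TSS. Its TSS lies 243 bp from that of Med29, which is transcribed in the opposite direction, so neither gene of this pair had a peak at the shared start region. The nearest Chd1 KO summit was 53.6 kb away. Ctr9, a scaffold subunit of the complex, is on chromosome 7 from 118172465 to 118199891 (plus strand), with a promoter GC content of 50.0% and a longest run of 12 bp across its TSS. The nearest Chd1 KO summit, 31.5 kb from the nearest Ctr9 TSS, lay within 1 kb of a TSS of the neighbouring gene Eif4g2.

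Leo1 and Rtf1 came closer to Cdc73 than Paf1 and Ctr9 did in their longest run and in their 200-bp window of highest GC content, but not in every feature. Leo1, whose product pairs with Paf1 in the complex, is on chromosome 9 from 75289331 to 75314239 (plus strand). Its 22-bp run, a repeat of CGGG units printed above, lies in an intron, from 122 to 143 bp downstream of its single TSS. The run was at percentile 89.3 and the promoter GC content, 52.8%, at percentile 58.8. Rtf1, which is needed for the ubiquitination of histone H2B that the complex promotes, is on chromosome 2 from 119500804 to 119561143 (plus strand). The 200-bp window of highest GC content near its TSS reached 83.0%, similar to the 83.5% of Cdc73, and its 18-bp run lies from 79 to 62 bp upstream of the TSS. The nearest Chd1 KO summits were 32.0 kb from Leo1 and 15.6 kb from Rtf1. Thus a short GC-rich window of this kind was found in Paf1 complex genes with and without a peak.

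Ssrp1 encodes 1 of the subunits of FACT. It is annotated on chromosome 2 from 84877355 to 84887266 (plus strand), and the gene P2rx3, on the opposite strand, has a TSS 264 bp downstream of the outermost TSS of Ssrp1. No summit of either list lay within 1 kb of its 10 TSSs or in its body, and at 322 kb its nearest Chd1 KO summit was the most distant of the 10 genes. The promoter had a GC content of 51.7%, at percentile 53.0, and a longest run of 15 bp. The partner of Ssrp1 in FACT, Supt16h, belongs to the other elongation genes described later and did have a Chd1 KO peak, with its summit 283 bp downstream of the TSS in an intron and a fold enrichment of 5.74. Its promoter GC content of 53.7% and longest run of 16 bp were close to those of Ssrp1, but it had more CpG dinucleotides (122 against 82, with ratios of observed to expected of 0.846 and 0.613), more runs of at least 12 bp (3 against 1) and a 200-bp window of higher GC content (79.5% against 74.5%). Rtf1, without a peak, had 4 such runs and a window of 83.0%, both above Supt16h, and a lower CpG ratio of 0.720. Whether these features bear on the peak was not tested.

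In P-TEFb the kinase gene had a peak and both cyclin genes had none (1 of 3, Wilson interval 6.15% to 79.2%, beside the 15.9% of all genes). Cdk9, the catalytic subunit, is on chromosome 2 from 32561304 to 32568596 on the minus strand and has 9 annotated TSSs. The Chd1 KO peak runs from 32568444 to 32568757, is 314 bp wide, and covers 161 bp upstream and 152 bp downstream of the outermost TSS. The summit at 32568561 is 35 bp downstream of that TSS, in the 5′ untranslated region of 1 transcript, which is annotated as a target of nonsense-mediated decay. Measured from the nearest TSS of a protein-coding transcript, the same summit lies 257 bp upstream. The Cdk9 peak was weak. Its fold enrichment of 3.44 was higher than in only 3.16% of the Chd1 KO peaks near a TSS, from 19 reads over a background of 4.82 and with a −log10 q-value of 3.29. Its −log10 p-value, 6.71, was below that of the weakest control peak. At the control depth its density would be 17.6 reads, under the 19 needed there, so an equal signal in control cells could have gone unlisted and the genotypes cannot be told apart at Cdk9 from these lists.

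Cdk9 had the most GC-rich promoter of the 10 genes. At 68.2% it was at percentile 99.2 of all protein-coding genes, and of the 173 genes with a promoter at least as GC-rich, Cdk9 included, 155 (89.6%) had a Chd1 KO summit within 1 kb of a TSS. Its longest run, of 26 bp, lies from 375 to 400 bp downstream of the outermost TSS, in the 5′ untranslated region and outside the peak. Under the peak the GC content was 79.0% and the longest run 17 bp, from 117 to 101 bp upstream, in capitals in the second sequence above. The peak held 37 CpG dinucleotides and 2 runs of at least 12 bp, fewer than the 66 and 6 of the Cdc73 peak. So the peaks of Cdc73 and Cdk9 had a similar GC content and differed in their runs and in fold enrichment.

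**Figure D2:**
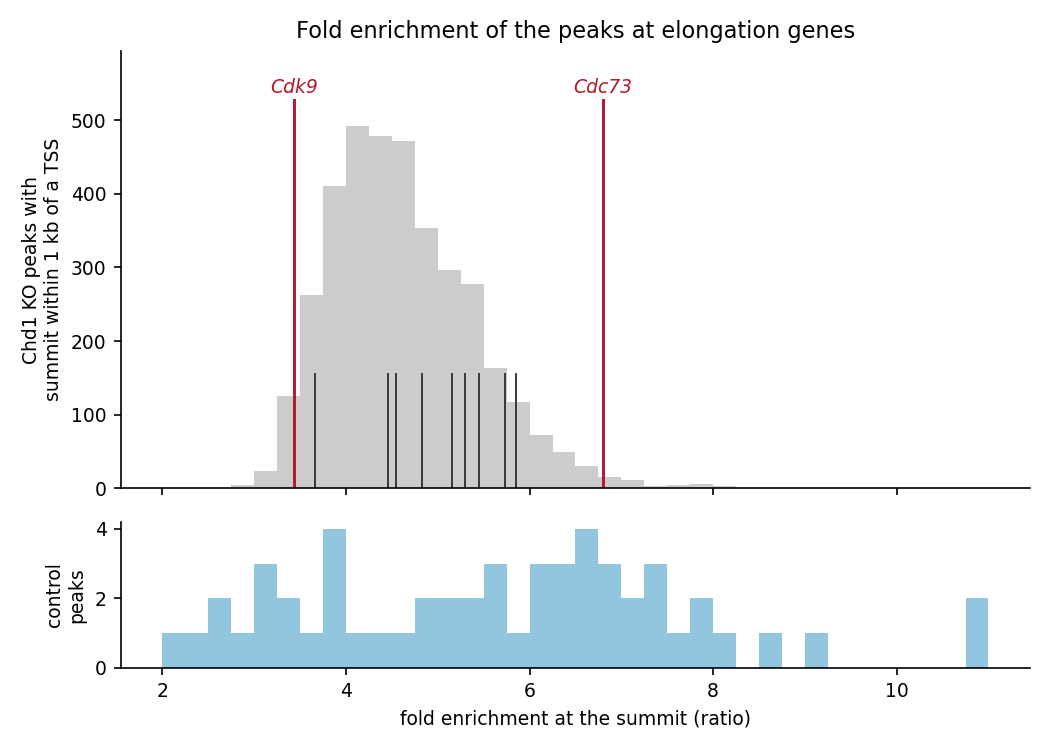
Histograms of the fold enrichment at the summit, a ratio, for the 3673 Chd1 KO peaks with a summit within 1 kb of a TSS (upper panel) and the 54 control peaks (lower panel), in bins of equal width. Tall red lines mark Cdk9 at 3.44 and Cdc73 at 6.80, and short dark lines the peaks at other elongation genes, which lie between 3.66 and 5.85.

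The cyclin genes of P-TEFb had a lower promoter GC content and a shorter longest run than Cdk9. Ccnt1, which encodes cyclin T1, is on chromosome 15 from 98369120 to 98401354 (minus strand). It had the lowest promoter GC content of the 10 genes, 46.9%, the shortest longest run, 9 bp, and the lowest ratio of observed to expected CpG dinucleotides, 0.255. Its outermost TSS is 98 bp from that of 4930415O20Rik on the opposite strand. Ccnt1 also had the largest stretch in which a summit would have been counted, 12141 bp around 8 TSSs, compared with 2001 bp for Leo1 and Ell, which have 1 TSS each. Ccnt2, which encodes cyclin T2, is on chromosome 1 from 129670741 to 129704638 (plus strand), with a promoter GC content of 53.4% and a longest run of 12 bp. Its ratio of observed to expected CpG dinucleotides, 0.800, was above the 0.764 of Cdk9. The nearest Chd1 KO summits were 62.4 kb from Ccnt1 and 96.4 kb from Ccnt2.

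Ell had a long GC run next to its TSS and no peak. Its product raises the rate of elongation by Pol II and is part of the super elongation complex. The gene is on chromosome 8 from 73063574 to 73116757 (plus strand). Its 29-bp run lies from 56 to 28 bp upstream of the TSS and was at percentile 96.8, with a promoter GC content of 57.9% at percentile 82.7. In other promoter features Ell was below Cdc73. The 200-bp window of highest GC content was 72.5% against 83.5%, and runs of at least 12 bp numbered 2 against 8. The ratio of observed to expected CpG dinucleotides was 0.668 against 0.925. Of the 913 protein-coding genes with a run of at least 28 bp in this window, which include Cdc73 and Ell, 652 (71.4%) had a Chd1 KO summit within 1 kb of a TSS. Ell is thus among the minority of such genes without one. The nearest Chd1 KO summit was 11.8 kb upstream, within 1 kb of a TSS of the neighbouring gene Fkbp8, with a fold enrichment of 3.52. The nearest control summit was 592 kb away, the shortest such distance of the 10 genes, and for the others this distance reached up to 72910 kb.

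**Figure D3:**
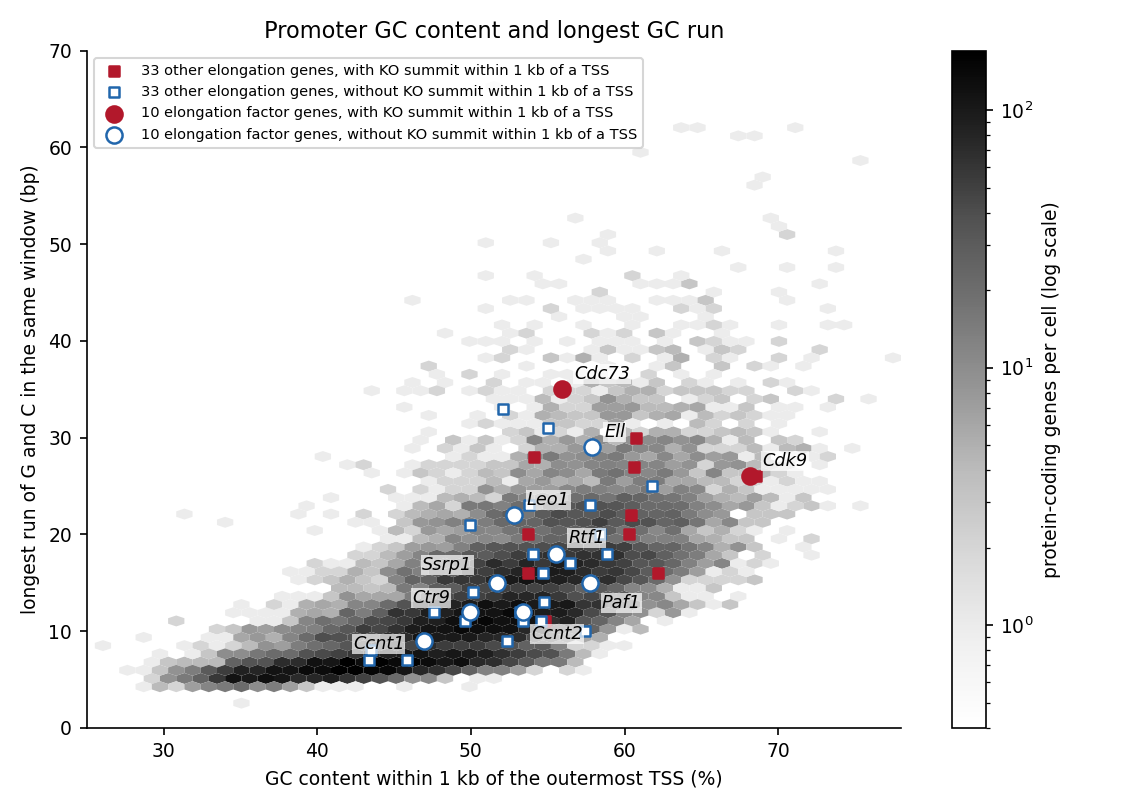
Promoter GC content (percent, within 1 kb of the outermost TSS) and the longest run of G and C in the same window (bp) for the 22367 protein-coding genes, shaded by number on a log scale, with the 10 genes as circles and 33 other elongation genes as squares, filled where a Chd1 KO summit lay within 1 kb of a TSS. Of the 10 genes Cdc73 has the longest run, at 35 bp, and Cdk9 the highest GC content, at 68.2%. Ell, without a peak, lies near Cdc73 in the features plotted here.

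Whether the promoters of the 10 genes were more GC-rich than those of all genes depended on the TSSs used. Around the outermost TSS the median GC content was 54.4%, with values from 46.9% to 68.2%, beside a median of 51.1% over all protein-coding genes. Within 500 bp of the outermost TSS the medians were 61.3% and 54.7%. Averaged over all annotated TSSs of a gene, both medians were 50.2%. That average takes in internal TSSs, and the 10 genes had a median of 5.5 TSSs, beside 2 over all protein-coding genes. The median longest run within 1 kb of the outermost TSS was 16.5 bp, from 9 to 35 bp, beside 12 bp. For orientation, all protein-coding genes with a Chd1 KO summit near a TSS had medians of 58.6% and 21 bp, and those without had 49.8% and 11 bp. The 8 genes without a peak had medians of 53.1% and 15 bp, between these values.

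The count of genes with a peak was then set beside the share of all protein-coding genes in the same band of promoter sequence. In bands of 5 percentage points of GC content, this share was 4.12% from 45% to 50% (Ctr9 and Ccnt1), 11.0% from 50% to 55% (Leo1, Ssrp1 and Ccnt2), 29.2% from 55% to 60% (Paf1, Cdc73, Rtf1 and Ell) and 72.4% from 65% to 70% (Cdk9). Added over the 10 genes these shares amount to 2.30 genes, where 2 had a peak. In bands of run length the sum was 3.14 genes, and in bands of gene length 2.02 genes. The number of elongation factor genes with a peak was thus close to the sums for GC content and gene length, and below that for the longest run, with no test of the difference. These sums are a description, take no account of the number of annotated TSSs, and rest on features that overlap in what they measure.

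**Figure D4:**
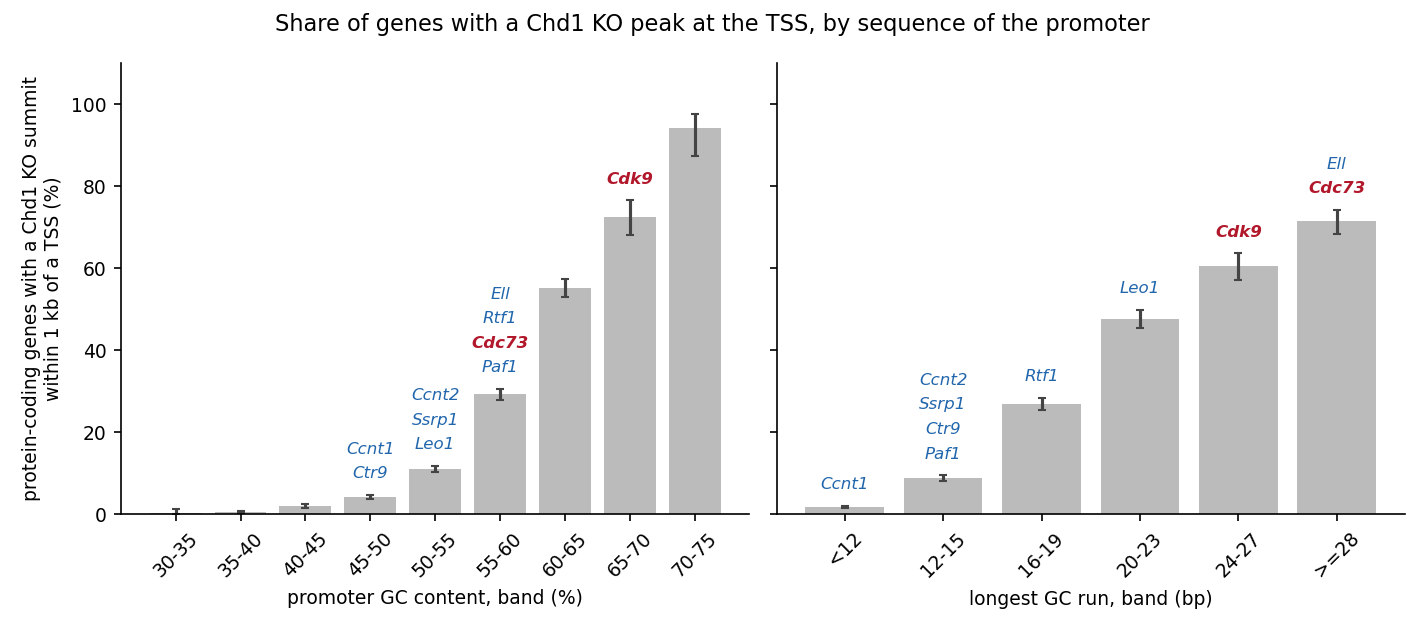
Share of all protein-coding genes with a Chd1 KO summit within 1 kb of a TSS, in percent, by band of promoter GC content (left) and by band of the longest run of G and C in bp (right), with Wilson 95% intervals. The 10 genes are written above the band they belong to, in bold red where they had a peak, and the share rises from 4.12% in the GC band of Ctr9 and Ccnt1 to 72.4% in that of Cdk9.

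Gene length differed widely within the list. Length was averaged over the protein-coding transcripts of a gene. The median was 27.7 kb, beside 13.2 kb over all protein-coding genes. Cdc73 was the longest at 104 kb, at percentile 92.6, and Cdk9 the shortest at 4.09 kb, at percentile 24.6. Paf1 (6.44 kb) and Ssrp1 (9.44 kb) were also short, Leo1 (24.9 kb), Ctr9 (27.1 kb), Ccnt1 (28.3 kb) and Ccnt2 (32.8 kb) were intermediate, and Ell (53.2 kb) and Rtf1 (60.3 kb) long. Of all protein-coding genes, 31.3% of those of at least 80 kb and 5.66% of those under 5 kb had a Chd1 KO summit near a TSS. By its annotated span of 7293 bp, Cdk9 was longer than Paf1 at 6438 bp and outside the class under 5 kb, while Cdc73 was the longest by either measure. Rtf1 and Ell had none in the class from 40 kb to 80 kb, where 31.0% did.

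A list of 33 other genes of Pol II elongation was examined in the same way. A Chd1 KO summit lay within 1 kb of a TSS in 10 of them (30.3%, Wilson interval 17.4% to 47.3%), beside the 15.9% of all protein-coding genes given above, and a control summit in 0. Their median promoter GC content was 54.6% and median longest run 17 bp, close to those of the 10 genes. The sums of the band shares were 7.53 genes by GC content, 10.1 by run length and 6.31 by gene length. The 10 of 33 thus lay at the sum for run length and above those for GC content and gene length. The Wilson interval lies wholly above the 15.9%, but it covers counting error only and takes no account of promoter sequence. The list was also made with earlier results of these data known. No test was made of these differences.

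The other genes were taken complex by complex, each count being small, read beside the 15.9% of all protein-coding genes and not tested. Of 8 further genes of the super elongation complex and its associated factors, to which Ell belongs, 4 had a peak at a TSS (Wilson interval 21.5% to 78.5%, all of it above the 15.9%). This was 1 of several small groups, and the interval takes no account of that or of promoter sequence. Eaf2, whose product binds ELL proteins, had its summit 370 bp upstream of its TSS (fold enrichment 4.54). A divergent gene starts 137 bp upstream of that TSS. The summit thus lies nearer to the start of that gene, and was counted for Eaf2 because it is within 1 kb. The scaffold genes Aff1 and Aff4 both had a summit 64 bp upstream of a TSS, with fold enrichments of 4.45 and 5.45. For Aff1 this is an internal TSS, since the summit lies 61724 bp downstream of the outermost one, and a further Chd1 KO peak (4.22) lay in an intron. Mllt1, which encodes the chromatin reader ENL, had its summit 150 bp downstream in a coding exon (5.29). Its paralog Mllt3, named after its values were seen, had a summit 1474 bp downstream of the nearest TSS (5.17), outside the window of 1 kb and so counted in the gene body.

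Of the 4 listed genes of the 7SK particle, a regulator of P-TEFb, 1 had a peak (Wilson interval 4.56% to 69.9%). Mepce, whose product caps the 7SK RNA that holds P-TEFb inactive, had its summit 852 bp downstream of a TSS with a fold enrichment of 3.66. As for Cdk9, its density at the control depth, 18.5 reads, is under the 19 needed there, so an equal control signal could have gone unlisted. Of the genes for Cdk12, Cdk13 and cyclin K, kinases that also phosphorylate Pol II and their cyclin, Cdk13 alone had a peak (1 of 3, Wilson interval 6.15% to 79.2%), with its summit 1 bp downstream of the TSS (4.83). Its promoter was like that of Cdk9 in GC content, 68.6%, and longest run, 26 bp, though its ratio of observed to expected CpG dinucleotides was higher (0.986 against 0.764), whereas Cdk12 had 57.4% and 10 bp. Over the 33 other elongation genes these features overlapped. Genes without a peak reached a GC content of 61.8% and a longest run of 33 bp. Those with a peak went down to 53.7% and 11 bp. The 61.8% is that of Mllt3, which had a Chd1 KO summit 1474 bp from a TSS. The 11 bp belongs to the outermost TSS of Aff1, whose peak lies at an internal TSS with a 17-bp run under it. Apart from Aff1, the shortest longest run of a gene with a peak was 16 bp.

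Of the remaining genes, Tceb2, which encodes elongin B, was the 1 of 3 elongin genes with a peak (Wilson interval 6.15% to 79.2%), its summit lying 7 bp upstream of the TSS (5.16). Setd2, the histone H3K36 methyltransferase that follows elongating Pol II, had its summit 78 bp upstream (5.85), and Supt16h of FACT was described with Ssrp1. None of the 4 genes for Spt4, Spt5, Spt6 and Iws1, none of the 4 NELF genes and none of the 3 TFIIS genes had a summit within 1 kb of a TSS, nor did the gene of a further Paf1 complex subunit on this list. For each group of 4 the Wilson interval reaches 49.0%, so these counts of 0 do not set the groups apart from the 15.9% of all protein-coding genes. Among the peaks at TSSs of elongation genes, that of Cdc73 had the highest fold enrichment and that of Cdk9 the lowest.

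**Figure D5:**
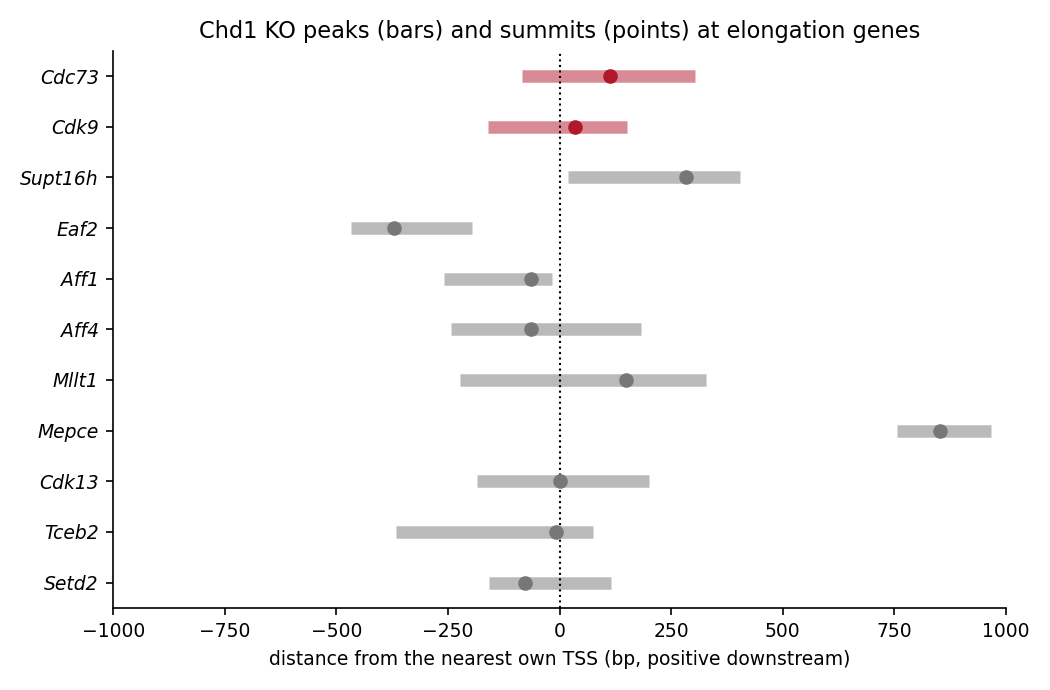
Extent (bars) and summit (points) of 11 Chd1 KO peaks at TSSs of elongation genes, as distance in bp from the nearest TSS of the same gene, positive downstream, with Cdc73 and Cdk9 in red. The summits lie from 370 bp upstream at Eaf2 to 852 bp downstream at Mepce, and those of Cdc73 and Cdk9 are 112 and 35 bp downstream.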

How the data were processed

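DSB-seq peak lists of Chd1 KO and control mouse ES cells were analysed, 1 per genotype. The authors mapped reads to mm9 with Bowtie2, combined the replicates of each genotype, called peaks with MACS2 and removed peaks in blacklisted regions, the submitters' notes also naming bedtools. The deposited fold enrichment is a ratio of reads to local background, each plus 1, within that library. Values of −log10 of the p-value and of −log10 of the q-value are likewise as the authors deposited them. ChIP-seq and signal tracks were not analysed here.

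The members and lists were chosen with earlier results of these data known. All 10 genes are named, other elongation genes where a summit lay within 1 kb of a TSS (a further gene that this selects is counted but not reported here), and neighbouring genes for position. Outside this rule, Mllt3 and Cdk12 were named after their values were seen, and cyclin K, Spt4, Spt5, Spt6 and Iws1 to say which genes a count covers. Of 2 entries named Cdc73 the longer was used. TSSs came from GENCODE M1, and promoter sequence from 1 kb on either side of the outermost TSS. Percentiles count ties as lying midway. Whole read numbers at summits were derived from the fold enrichment together with the Poisson p-value, and they returned the −log10 p-value with an error of at most 7.25e-05 (Chd1 KO) or 1.35e-04 (control). The fewest reads at a listed summit were 13 in Chd1 KO and 17 in control. Tested on simulated data, windows, bodies, runs and reads were correct in 400 of 400 cases each. Python 3.11.15, NumPy 2.4.6, SciPy 1.17.1, statsmodels 0.14.6, pysam 0.24.0, samtools 1.23.1 and Matplotlib 3.10.9 were used. Alternatives changed the window, transcripts, peak position, peak threshold and the definitions of body, promoter and length.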

Additional observations from a re-analysis of the deposited data

How the results depend on the processing

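No paired analysis was possible because the peak lists used here hold 1 list per genotype, made from both replicates together, and the reads of the single replicates were not analysed. The 2 genes of the 10 with a Chd1 KO summit within 1 kb of a TSS, Cdc73 and Cdk9, fell to 1, Cdc73, with a fold enrichment of at least 4 and again when Chd1 KO peaks had to reach the significance of the weakest control peak, since the Cdk9 peak is below both limits. Counted over whole genes with the TSS region included, a Chd1 KO summit lay in 2 of the 10 genes in place of 0, and these are the same peaks. The share of all protein-coding genes with a Chd1 KO summit within 1 kb of a TSS, 15.9%, became 14.7% within 500 bp, 16.6% within 2 kb, 10.3% from 1 kb upstream to 100 bp downstream, 15.3% at a q-value of at most 0.001, 12.7% at a fold enrichment of at least 4 and 14.2% at the significance of the weakest control peak. The median promoter GC content of the 10 genes was 61.3% within 500 bp and 50.2% as a mean over all TSSs (54.7% and 50.2% over all protein-coding genes), and their median gene length 29.8 kb as the annotated span. The count of 10 among the other elongation genes ranged from 7 to 11. The control counts of 0 and the median longest run were unchanged under the alternatives run for them. Both lists hold only sites that passed the threshold of the peak caller, and weaker sites in either genotype were not analysed here.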
